A study of Chlamydomonas reinhardtii with 45 samples.

Results

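The genes examined here encode the machinery that builds and maintains cilia in the green alga *Chlamydomonas reinhardtii*, namely intraflagellar transport (IFT) proteins, the motor that pulls them, the BBSome, and proteins of the ciliary base. Members were taken from the gene table by name alone, as every gene whose symbol begins with IFT, BBS, FLA, NPHP, MKS or CEP followed by a number and whose description does not mention dynein. This rule uses no measured value, though it was set with earlier results of these data known. It found 38 of 17609 genes, of which 22 carried an IFT symbol, 9 a BBS symbol, 2 an FLA symbol, 1 an MKS symbol and 4 a CEP symbol. No gene matched the NPHP prefix, so MKS6 is the sole member assigned to the transition zone, and no gene was removed for naming a dynein. All 38 members passed the filter on low values, as did 14602 of all genes.

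IFT trains move cargo along the ciliary axoneme under the membrane: IFT-B complexes and kinesin-II carry tubulin and other axonemal parts toward the tip, and IFT-A complexes with cytoplasmic dynein 1b carry material back. The BBSome rides on these trains and exports membrane-associated proteins, and the transition zone at the ciliary base gates entry. *Chlamydomonas* resorbs its cilia before mitosis and grows new ones after the daughter cells form, so a synchronous culture passes through ciliary disassembly and assembly in each cell cycle.

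All libraries came from strain CC-5390, which descends from the mating type plus strain CC-4351 and carries the cosmid pCB412 with ARG7. Cultures were grown photoautotrophically in turbidostats under 12 h of light at 28 °C and 12 h of darkness at 18 °C, and populations were acclimated to low light (LL), moderate light (ML, the control) or high light (HL). The photon flux was 50 in LL, 200 in ML and 1000 in HL, in µmol photons per square metre and second. LL cultures were synchronized in ML first and then moved to LL. Polyadenylated RNA was sequenced at 5 timepoints numbered in hours from the onset of light: −2 at the end of the night, +2, +6 and +10 in the day, and −10 early in the following night. The 15 groups held 3 experimental replicates each, which gave 45 libraries. Per the study's methods, replicates were independent cultures run in different weeks. Because each library pools a whole culture, fewer cells expressing a gene and less mRNA per cell cannot be told apart.

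Abundance is given as FPKM (fragments mapped to a transcript, scaled by its length and by all mapped fragments), which corrects for gene length and for the size of the library. The deposited values hold no read totals. From the spacing of low FPKM values between libraries, relative depth ranged from 0.582 to 1.36 times that of the first ML library at −2 in all but 1 library, with a median of 0.955. The exception was LL replicate 1 at −2, at 0.168, and no count of members called changed by more than 1.5 times without it. In the ML group at +10, replicate 3 had the lowest FPKM of its group for 35 of the 38 members, and in the ML group at −10, replicate 3 had the highest for 35 of 38. Counts of members called that changed by more than 1.5 times without 1 of these libraries are given below both ways.

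Members differed widely in abundance. Averaged over all 45 libraries, the 6 IFT-A mRNAs were within a narrow band, with IFT122 at 30.9 FPKM, IFT121 at 28.4, IFT43 at 28.1, IFT144 at 28.0, IFT140 at 24.9 and IFT139 at 24.7. The IFT-B core mRNAs were higher and more spread, led by IFT52 at 59.0 and IFT25 at 58.4 FPKM and followed by IFT46 at 41.2, IFT27 at 41.0, IFT70 at 39.8, IFT22 at 39.5, IFT81 at 38.2, IFT88 at 36.0, IFT74 at 35.7 and IFT56 at 33.6. Among the peripheral IFT-B mRNAs, IFT38 averaged 60.5, IFT54 59.3, IFT20 42.6, IFT57 31.2, IFT172 30.8 and IFT80 30.5 FPKM. Every IFT mRNA therefore averaged above 24 FPKM.

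The remaining members were mostly lower. The kinesin-II motor subunits FLA8 and FLA10 averaged 34.1 and 21.1 FPKM. BBS3, the small GTPase that recruits the BBSome to membranes, averaged 29.8 FPKM, against 18.0 for BBS5, 14.2 for BBS8, 12.0 for BBS2, 11.6 for BBS7, 11.2 for BBS1, 8.35 for BBS4, 7.80 for BBS9 and 4.81 for BBS3A, a second gene described as a BBS3 protein. CEP19 averaged 9.04, CEP83 6.70, MKS6 4.60, CEP131 3.69 and CEP95 3.34 FPKM. CEP131 was the only member with a library at 0, LL replicate 2 at −2.

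In every population, most of these mRNAs were abundant at night and scarce in the first hours of the day. By group means, 28 of 38 members were highest at −10 in LL, 27 in ML and 22 in HL, whereas 21.2%, 21.7% and 20.6% of all genes tested peaked there in LL, ML and HL. No member was highest at +2 or +6 in any population. The lowest mean fell at +6 for 31 members in LL, 25 in ML and 35 in HL, and at +2 for the rest. All 22 IFT mRNAs peaked at −10 in LL and in ML, and 21 of them did so in HL.

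**Figure D1:**
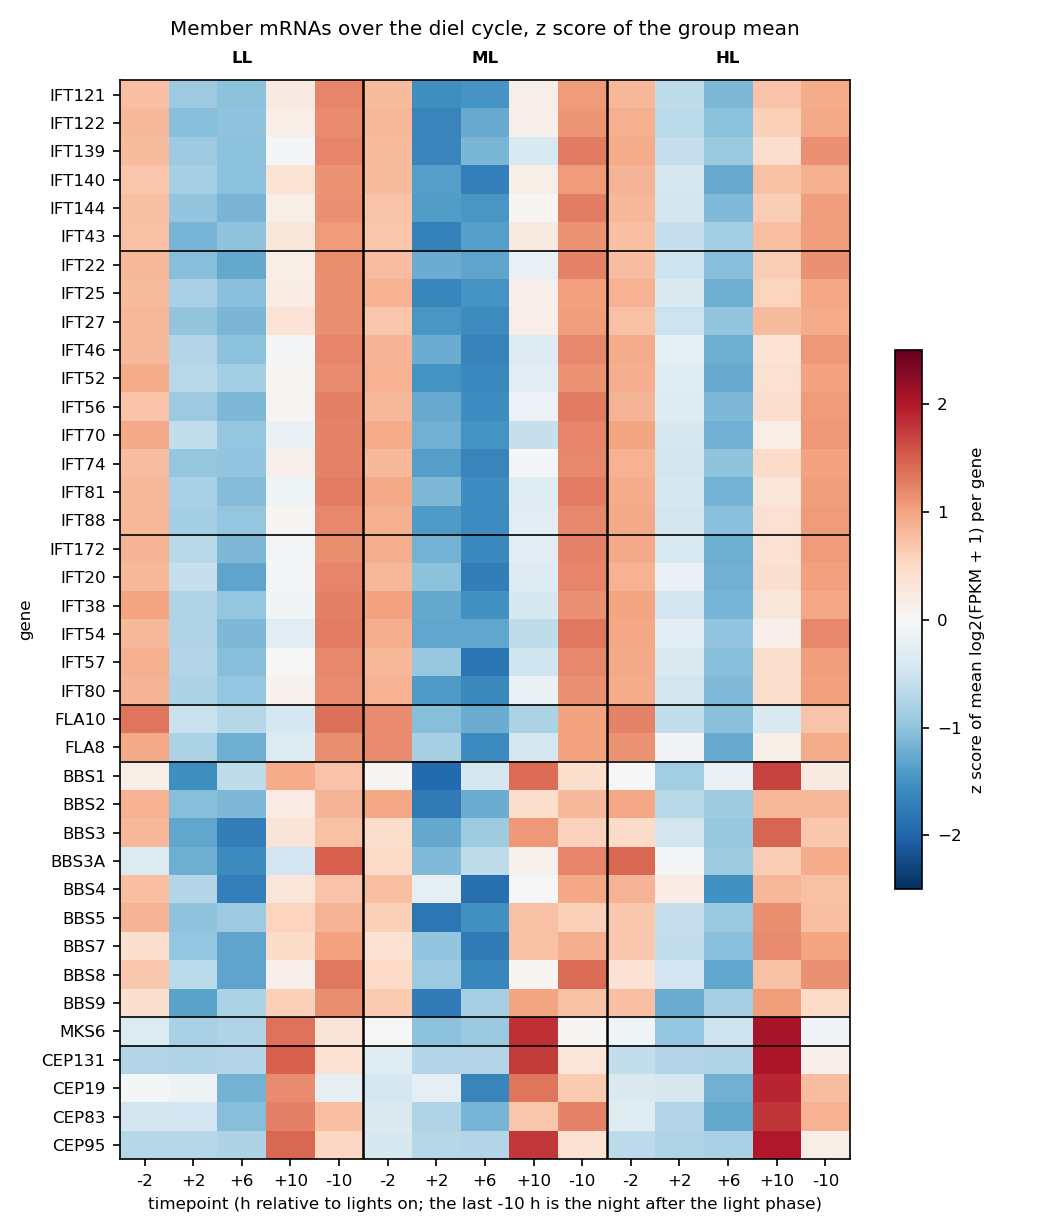
Heatmap of the 38 members (rows, grouped by role) across the 5 timepoints in LL, ML and HL populations (columns); colour is the z score of the mean log2(FPKM + 1) of 3 libraries, scaled within each member. The 22 IFT mRNAs are high at −10 and −2 and low at +2 and +6 in every population, whereas MKS6, CEP131, CEP19 and CEP95 are highest at +10.

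IFT122, a subunit of the retrograde IFT-A complex and its most abundant mRNA (Cre01.g065822), shows the cycle in the control population. In ML it had 51.6, 48.0 and 46.5 FPKM at −2 and dropped to 4.32, 3.09 and 2.80 FPKM at +2. It remained low at +6, with 5.80, 5.20 and 5.33 FPKM, and then reached 26.4, 28.4 and 18.6 FPKM at +10 and 59.2, 61.0 and 69.5 FPKM at −10. The 6 night libraries were all above the 3 libraries at +10, which were all above the 6 libraries at +2 and +6. On this scale of means, the level at +2 was a small share of that at −10 for the typical member, with a median over the 38 members of 13.2% in LL, 7.94% in ML and 22.8% in HL. The corresponding medians for the 9 BBS mRNAs were 33.7%, 32.4% and 51.8% in LL, ML and HL, so the daily swing of the BBSome mRNAs was shallower by this measure, and the difference between the role groups was not tested.

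Changes between successive timepoints were tested in a linear model of log2(FPKM + 1) over all libraries (limma). A gene was called when its fold change exceeded 1 on the log2 scale in either direction with a Benjamini-Hochberg adjusted p below 0.01 over the 14602 genes tested. Adding 1 to FPKM understates the fold changes of scarce mRNAs. At +2 relative to −2, 29 of 38 members fell in LL, 30 in ML and 27 in HL, against 14.7%, 18.7% and 15.3% of all genes that fell in LL, ML and HL. All 22 IFT mRNAs fell in each population, by a median of 2.35 in LL, 3.24 in ML and 1.95 in HL on the log2 scale.

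At +10 relative to +6 the direction turned, and 32 members rose in LL, 33 in ML and 34 in HL, against 13.0%, 17.1% and 16.6% of all genes. At −10 relative to +10, 25 members rose in LL, 24 in ML and 9 in HL, where 9.73%, 17.1% and 13.5% of all genes rose. Members also fell over this dusk interval, 3 in LL, 3 in ML and 5 in HL, against 18.2%, 26.3% and 22.8% of all genes. In LL and in ML these were MKS6, CEP131 and CEP95, and in HL they were joined by CEP83 and BBS1.

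Between +2 and +6 most members stayed low. IFT20 fell in LL (1 member, 9.88% of all genes), IFT20, IFT57 and BBS4 fell in ML (3 members, 14.5%) and BBS1 rose in ML (1 member, 15.3%). In HL, 14 members fell, against 9.79% of all genes, and these were 12 IFT mRNAs with FLA8 and BBS4. The LL count is sensitive to single libraries, being 0 without LL replicate 3 at +2 or LL replicate 1 at +6 and 2 without LL replicate 1 or 2 at +2 or LL replicate 3 at +6. Few members differed by this test between the night timepoints, and those lower at −2 than at −10 were CEP131, CEP83, CEP95 and BBS3A in LL (4 members, 7.17% of all genes), CEP83 and CEP95 in ML (2 members, 7.27%), and CEP131, CEP83 and CEP95 in HL (3 members, 7.63%). BBS3A in LL rests on the shallow library, with 0.798, 5.99 and 6.11 FPKM at −2, against 7.87, 8.16 and 10.9 FPKM at −10. Without LL replicate 1 at −2 its change was −0.49 (limma adjusted p = 0.16) and 3 members were called in LL. Without ML replicate 3 at −2 or at −10, the call on CEP95 in ML was lost and 1 member was called.

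Between populations, members were tested at each timepoint. At +2, 21 of 38 members were higher in HL than in ML and none was lower, against 4.51% of all genes higher and 1.46% lower. This was the largest count with the fold threshold, but not without it: at an adjusted p below 0.01 alone, 27 members differed in HL against ML at +2, 29 in HL against ML at +10 and 32 in HL against LL at +10. The 21 comprised all 6 IFT-A mRNAs, 9 of 10 IFT-B core mRNAs, 5 of 6 peripheral IFT-B mRNAs and BBS5. The median log2 fold change was 1.36 over the 22 IFT mRNAs and 0.32 over the other 16 members, with 0.04 over all genes tested. The 16 include MKS6, CEP95 and CEP131, whose mRNAs at +2 were too scarce to show a difference with 1 added to FPKM. The IFT mRNAs that missed the fold threshold were IFT22, a small GTPase-like subunit, at 0.90 and IFT57 at 0.84.

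The largest difference was in IFT25 (Cre10.g450350), which forms a dimer with the small GTPase IFT27 on the IFT-B complex. At +2 it had 20.9, 24.1 and 20.3 FPKM in HL, against 4.22, 3.38 and 4.03 FPKM in ML. The lowest HL library was thus well above the highest ML library, and the difference was 2.22 on the log2 scale (SE 0.15, limma adjusted p = 6.4e-14). IFT27 (Cre01.g047950), its partner, averaged 13.1 ± 1.8 FPKM in HL and 3.89 ± 0.32 FPKM in ML (SD, n = 3 each), a difference of 1.53.

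IFT52 (Cre04.g219250), a central scaffold of the IFT-B core, had 27.5, 22.9 and 24.7 FPKM at +2 in HL and 7.14, 5.17 and 4.64 FPKM in ML. The groups did not overlap, and the log2 fold change was 1.98 (SE 0.14, limma adjusted p = 1.5e-13). IFT80 (Cre03.g204150), a peripheral IFT-B subunit, had 9.93, 8.73 and 10.7 FPKM in HL and 2.39, 2.20 and 2.69 FPKM in ML, again without overlap, with a log2 fold change of 1.65 (SE 0.16, limma adjusted p = 1.8e-10). IFT122 had 11.0, 10.5 and 9.89 FPKM in HL and 4.32, 3.09 and 2.80 FPKM in ML, and its log2 fold change was 1.40. Among the other IFT mRNAs called, values ran from 1.07 for IFT81, which with IFT74 binds tubulin, to 1.58 for IFT43.

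IFT46 and IFT56 were among the 9 IFT-B core mRNAs that were higher in HL than in ML at +2. In *Chlamydomonas* they are needed for the transport of outer and of inner dynein arm components. IFT46 (Cre05.g241637) averaged 21.3 ± 0.98 FPKM in HL and 7.04 ± 0.91 FPKM in ML at +2, and IFT56 (Cre11.g467616) averaged 16.5 ± 0.78 FPKM in HL and 6.22 ± 0.62 FPKM in ML (SD, n = 3 each). IFT172 (Cre17.g703900), which acts in turnaround of trains at the ciliary tip, averaged 12.0 ± 1.1 FPKM in HL and 4.44 ± 0.86 FPKM in ML (SD, n = 3 each). All 3 log2 fold changes, 1.48 for IFT46, 1.28 for IFT56 and 1.27 for IFT172, passed the test.

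**Figure D2:**
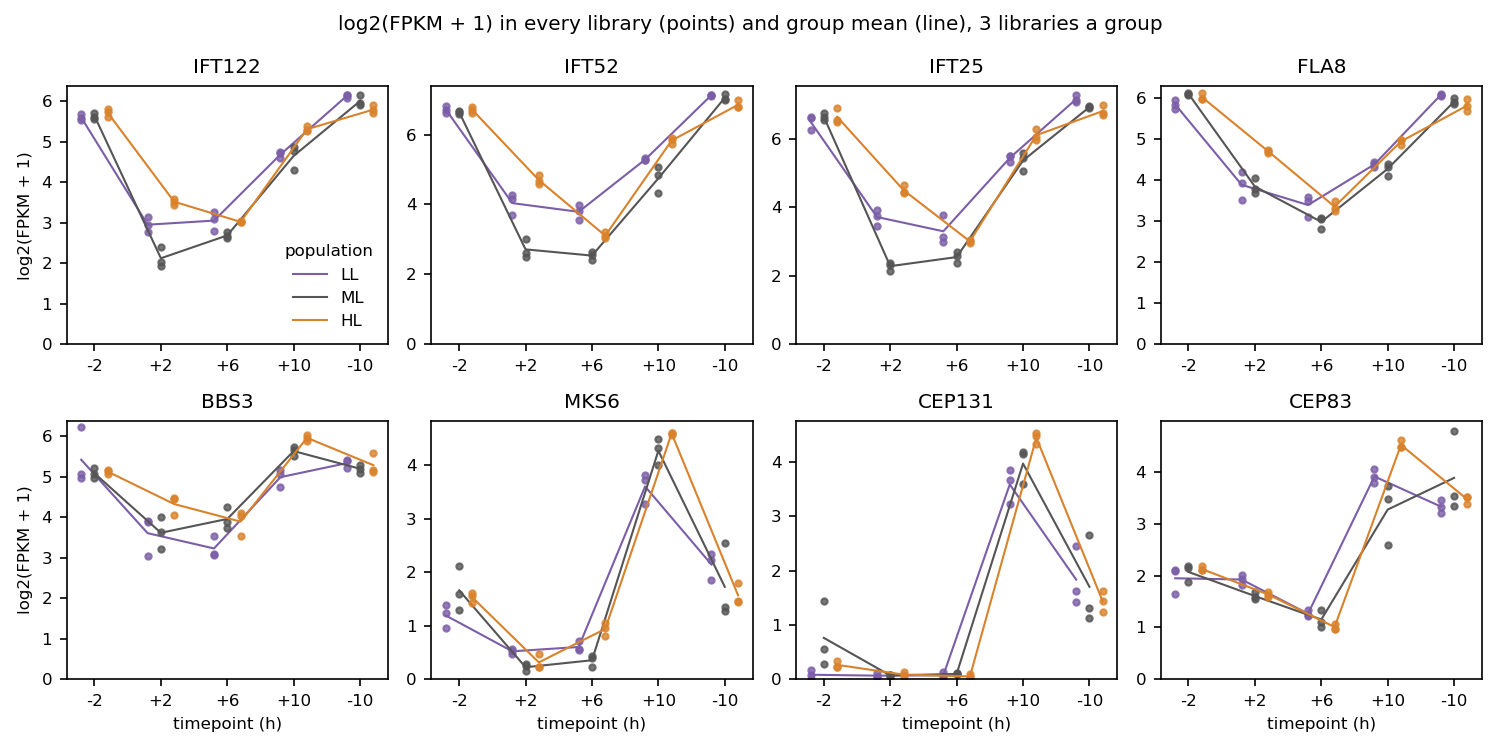
The log2(FPKM + 1) value in each library of 8 members at the 5 timepoints in hours from lights on, with LL, ML and HL libraries as separate points and lines through the means of 3 libraries. At +2 the HL libraries of IFT25, IFT52 and IFT122 lie above the LL libraries, which lie above the ML libraries, whereas MKS6, CEP131 and CEP83 are low at +2 and +6 in every population.

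Of the 16 members of the other roles, BBS5 alone passed both thresholds at +2. FLA8 (Cre12.g522550), a kinesin-II motor subunit, had 25.1, 23.9 and 25.6 FPKM in HL, against 15.6, 11.8 and 12.6 FPKM in ML, and although these did not overlap, the log2 fold change of 0.86 (limma adjusted p = 6.1e-07) was below the fold threshold. FLA10 differed by 0.57 (limma adjusted p = 0.00021). BBS5 (Cre06.g267550), a BBSome subunit, had 10.8, 8.96 and 9.70 FPKM in HL, against 4.88, 3.51 and 3.31 FPKM in ML (1.15, SE 0.15, limma adjusted p = 1.0e-07). BBS3 (Cre16.g664500) had 20.8, 15.6 and 21.4 FPKM in HL and 11.4, 8.24 and 15.1 FPKM in ML, and the groups were separated by a small gap (0.71, 95% interval 0.24 to 1.19).

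Neither MKS6 nor any CEP mRNA passed the test at +2. MKS6 (Cre16.g660750), the counterpart of CC2D2A, was at or under 0.389 FPKM in every HL and ML library at +2. CEP95 was at or under 0.332 FPKM and CEP131 at or under 0.0911 FPKM in the same libraries. With 1 added to FPKM, mRNAs at these levels could not reach the fold threshold. The test therefore cannot tell whether MKS6, CEP95 and CEP131 differed at +2, and no fold change is given for them. CEP19 (Cre12.g487350), whose human counterpart acts in entry of IFT-B into the cilium, had 6.47, 6.56 and 6.5 FPKM in HL and 6.81, 6.31 and 8.23 FPKM in ML. The groups overlapped, and the difference was −0.10 (95% interval −0.42 to 0.21). For CEP83 it was 0.03 (95% interval −0.42 to 0.48).

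Without a fold threshold, the 3 HL libraries were above the 3 ML libraries at +2 for 32 of 38 members, compared with 30.3% of all genes. Scaling every library to the same median shifts the median of all genes by up to 0.12 in these light comparisons, and under it the count at +2 was 20 members. It ranged from 20 to 22 when any replicate number was left out.

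**Figure D3:**
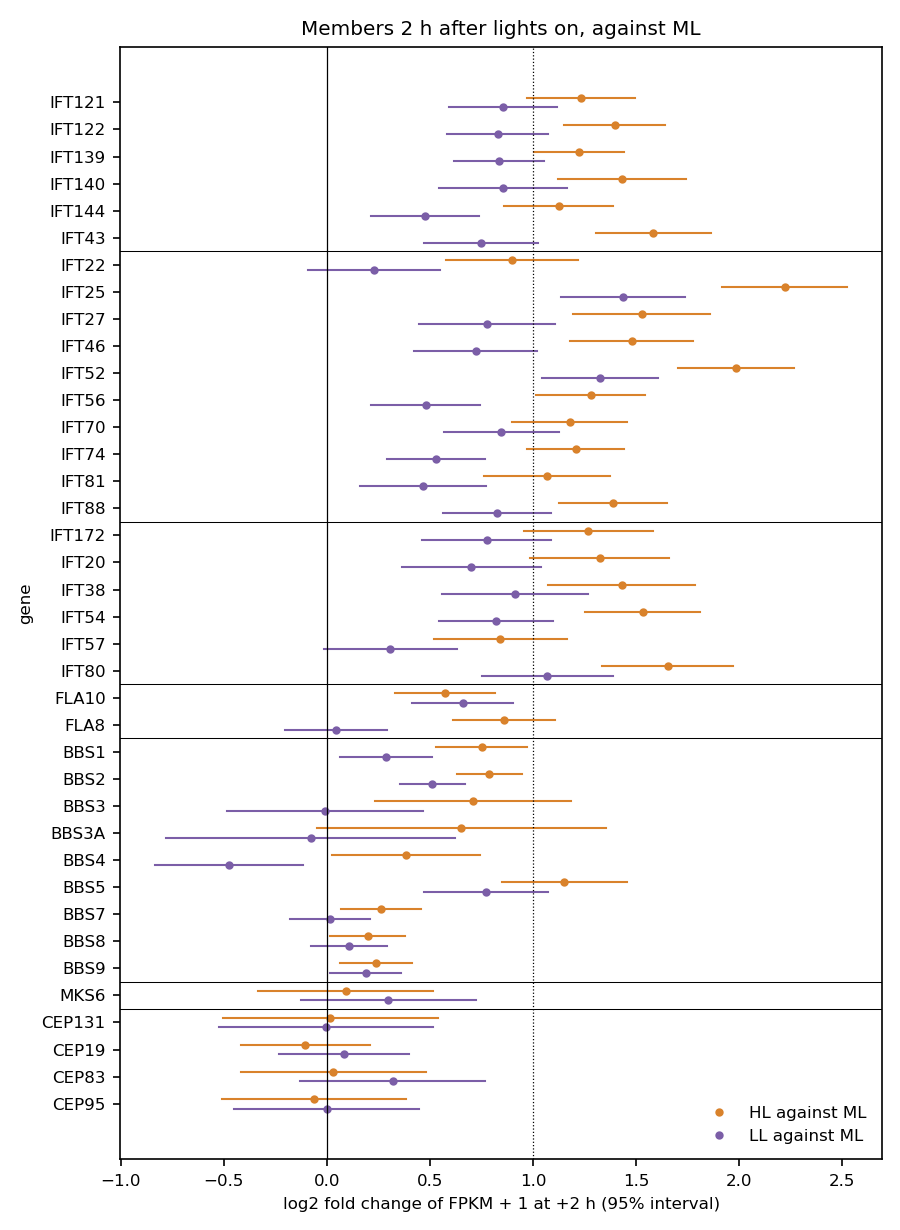
Log2 fold change at +2 against ML for each member, with 95% intervals from the model over all libraries, for HL and for LL; the dotted line marks a change of 1. In HL the IFT mRNAs lie between 0.84 for IFT57 and 2.22 for IFT25, and in LL between 0.23 for IFT22 and 1.44 for IFT25.

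LL populations were compared with the same ML libraries, so the HL and LL results are not independent of each other. At +2, 3 of 38 members were higher in LL than in ML and none was lower, against 4.28% and 3.23% of all genes. The members were IFT25, IFT52 and IFT80. IFT25 had 10.1, 12.5 and 14.2 FPKM in LL, against 4.22, 3.38 and 4.03 FPKM in ML (log2 fold change 1.44, SE 0.15, limma adjusted p = 8.3e-10). IFT52 had 11.9, 16.8 and 18.3 FPKM in LL, against 7.14, 5.17 and 4.64 FPKM in ML (1.32, limma adjusted p = 9.7e-10).

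IFT80 had 5.48, 5.89 and 7.28 FPKM in LL, against 2.39, 2.20 and 2.69 FPKM in ML (1.07, limma adjusted p = 8.0e-07). None of the 3 mRNAs overlapped between the groups. A further 19 members had an adjusted p below 0.01 with a smaller fold change, and all 22 IFT mRNAs had a positive one, with a median of 0.80. The count is close to the background and depends on the libraries: without LL replicate 1 at +2, which had the lowest FPKM of its group for 30 of 38 members, 6 members were called, and without LL replicate 3 at +2 the call on IFT80 was lost (0.97). BBS4, a BBSome subunit, had the lowest value (−0.48, limma adjusted p = 0.029), with 2.93, 3.22 and 6.06 FPKM in LL against 5.99, 5.26 and 6.20 FPKM in ML, and the groups overlapped.

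HL and LL were also compared directly. At +2, 22 members differed at an adjusted p below 0.01, all higher in HL, but none passed the fold threshold, where 2.75% of all genes were called higher and 2.4% lower. At an unadjusted p below 0.05 the limma count was 30. The largest differences were 0.86 for BBS4 (limma adjusted p = 0.00021) and 0.84 for IFT43 (limma adjusted p = 7.6e-06). IFT25 differed by 0.79 and IFT52 by 0.66, and in both the lowest HL library was above the highest LL library. Without LL replicate 3 at +2, 1 member was called. Group means ran in the order ML, LL, HL from low to high for 30 of 38 members at +2, compared with 19.6% of all genes.

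At +6 fewer members were called, and the median log2 fold change against ML was 0.47 in HL and 0.47 in LL. In LL, 4 members were higher than in ML and none was lower, against 1.97% and 1.92% of all genes. IFT52 had 10.7, 13.2 and 14.9 FPKM in LL, against 4.92, 4.36 and 5.18 FPKM in ML (1.25, SE 0.14, limma adjusted p = 1.1e-08). IFT57 (Cre10.g467000), a peripheral IFT-B subunit, had 4.53, 6.25 and 9.29 FPKM in LL, against 2.59, 2.25 and 2.45 FPKM in ML (1.12, SE 0.16, limma adjusted p = 1.2e-06). The LL and ML libraries did not overlap for either mRNA, though the 3 LL values of IFT57 were widely spread.

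IFT80 had 3.5, 5.28 and 5.90 FPKM in LL at +6, against 2.29, 1.16 and 1.82 FPKM in ML (1.09, SE 0.16, limma adjusted p = 1.3e-06), and IFT140, an IFT-A subunit, differed by 1.03. LL replicate 3 had the highest FPKM of its group for 30 of 38 members at +6, and without it 1 member, IFT52, was called. The call on IFT140 was also lost without ML replicate 1 at +6 (0.96) and that on IFT80 without ML replicate 2 at +6 (0.93). In HL, IFT57 was the only member higher than in ML and none was lower, against 1.37% and 0.644% of all genes. IFT57 had 7.10, 5.89 and 6.45 FPKM in HL, and all of these were above the 3 ML libraries (1.12, SE 0.16, limma adjusted p = 2.0e-06). Leaving out ML replicate 1, ML replicate 3 or HL replicate 2 at +6 brought the HL count to 2. Between HL and LL no member was called at +6, against 1.94% of all genes higher and 1.12% lower, and the limma count at an unadjusted p below 0.05 was 8.

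Late in the day, at +10, 10 members were higher in HL than in ML and none was lower, against 3.24% and 0.438% of all genes. They were 4 IFT-B core mRNAs (IFT22, IFT27, IFT52 and IFT70), 5 peripheral IFT-B mRNAs (IFT20, IFT38, IFT54, IFT57 and IFT80) and CEP83. Every one of the 38 members had a positive log2 fold change, with a median of 0.76, whereas the median of all genes was −0.04. The 3 HL libraries were above the 3 ML libraries for 33 members, compared with 23.1% of all genes. No IFT-A mRNA passed the fold threshold, and their median was 0.77.

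IFT57 had 31.3, 31.4 and 34.0 FPKM in HL at +10, against 12.8, 15.2 and 8.70 FPKM in ML (1.36, SE 0.16, limma adjusted p = 5.1e-08). IFT38 (Cre17.g721250), another peripheral IFT-B subunit and the most abundant member, had 46.9, 46.7 and 48.0 FPKM in HL, against 21.3, 26.5 and 14.4 FPKM in ML (1.19, SE 0.17, limma adjusted p = 2.5e-06). CEP83 (Cre11.g467620), whose human counterpart is a distal appendage protein of the basal body, had 23.6, 21.3 and 21.4 FPKM in HL, against 10.2, 12.4 and 5.07 FPKM in ML (1.25, SE 0.22, limma adjusted p = 3.8e-05). HL libraries were tightly grouped and above all ML libraries for these mRNAs, and in ML replicate 3 was the lowest each time.

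This count depends on that library. Without ML replicate 3 at +10, 2 members, IFT54 and IFT57, were called rather than 10. Without HL replicate 3 at +10, the calls on IFT22 and IFT27 were lost. Transcripts of 11 genes of DNA replication and mitosis, used here as markers of dividing cells, summed to 1521, 1631 and 1563 FPKM in HL and 1775, 1637 and 1573 FPKM in ML at +10. ML replicate 3 was therefore also the lowest of its group on these markers, by a smaller margin, and their part in the result was not tested.

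In LL at +10 no member was called against ML, where 3.57% of all genes were higher and 1.38% lower, and the limma count at an unadjusted p below 0.05 was 21. IFT57 was 0.71 higher (limma adjusted p = 0.00048). MKS6 was at the other end, with 12.3, 13.0 and 8.64 FPKM in LL against 21.5, 18.9 and 15.1 FPKM in ML, without overlap (−0.67, limma adjusted p = 0.0096). The division markers summed to 1129, 964.2 and 724.8 FPKM in LL, below all ML libraries, and their part in the MKS6 value was not tested.

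The direct comparison of HL with LL at +10 gave a difference at an adjusted p below 0.01 for 32 members, all higher in HL, but none passed the fold threshold, where 2.23% of all genes were called higher and 3.14% lower. At an unadjusted p below 0.05 the limma count was 36. MKS6 had 23.3, 22.8 and 23.4 FPKM in HL, against 12.3, 13.0 and 8.64 FPKM in LL (0.99, SE 0.21, limma adjusted p = 0.00022). BBS3 had 58.5, 61.3 and 64.6 FPKM in HL, against 32.5, 34.7 and 25.9 FPKM in LL (0.97, SE 0.23, limma adjusted p = 0.00094). The 3 HL libraries were above the 3 LL libraries for 36 of 38 members, compared with 33.9% of all genes. Leaving out LL replicate 1 or 2 at +10 brought the count to 2 and leaving out HL replicate 1 or 2 brought it to 1.

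**Figure D4:**
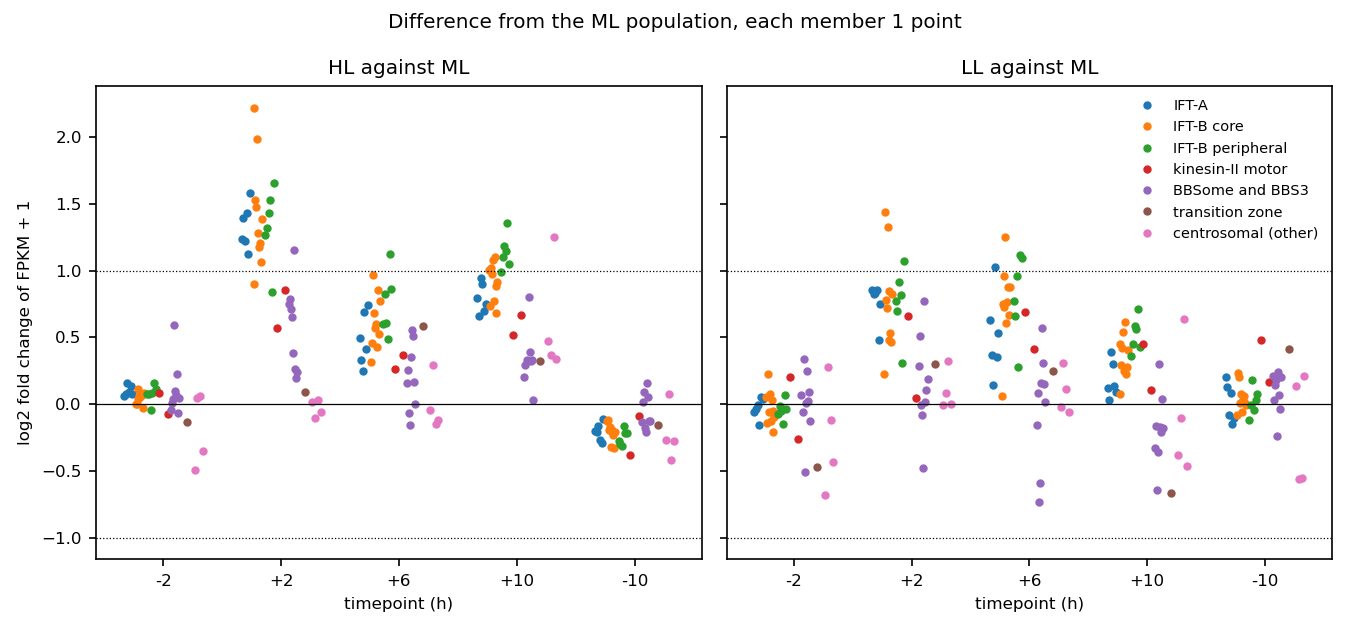
Log2 fold change against ML of every member at each timepoint in hours from lights on, for HL (left) and LL (right), coloured by role, with dotted lines at a change of 1 in either direction. In HL, 21 members lie above 1 at +2 and 10 at +10, and at −10 and −2 none passes the threshold in either population.

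No member was called at night, that is, at −10 or −2 in HL or LL against ML or in HL against LL. For HL against ML, 0.781% of all genes were called higher and 0.294% lower at −10, with 4 members at an unadjusted p below 0.05 in limma, and 0.233% and 0.274% at −2, with 1 member. For LL against ML, 2.85% were called higher and 2.0% lower at −10, with 4 members at that p, and 1.62% and 1.33% at −2, with 3 members. For HL against LL, 2.67% were called higher and 2.09% lower at −10, with 15 members at that p, and 0.719% and 1.19% at −2, with 2 members.

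The night values nevertheless leaned downward in HL at −10. The median log2 fold change over the members was −0.20 against ML, and the 3 HL libraries were below the 3 ML libraries for 13 members, compared with 11.7% of all genes. At −10, replicate 3 was the highest of its group for 35 of 38 members in ML and 37 of 38 in HL, and medians without these libraries are not given. Against LL the median was −0.26, and the 3 HL libraries were below the 3 LL libraries for 20 members, compared with 26.0% of all genes. At an adjusted p below 0.01 without a fold threshold, 3 members differed between HL and LL at −10, FLA10 and BBS9 (−0.33) lower in HL and CEP19 (0.64) higher. FLA10 had between 50.0 and 53.3 FPKM in LL, 33.4, 36.6 and 39.5 FPKM in ML, and 24.9, 27.3 and 31.4 FPKM in HL. Its difference between HL and LL was −0.86 (limma adjusted p = 6.3e-07), just under the fold threshold, and the 3 populations did not overlap. BBS3 in LL at −2 had 73.8 FPKM in replicate 1, the shallow library, against 30.3 and 32.7 FPKM in the others, so its mean there rests on that library.

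Whether the size of a step between successive timepoints differed between populations was tested directly, as the difference in that step between HL or LL and ML. This contrast does not test when a member peaks. It uses the same libraries as the comparisons at each timepoint, so its results are not independent of those. From −2 to +2, the fall was smaller in HL than in ML for 20 members, 19 IFT mRNAs and BBS5, and larger for none, against 4.01% and 1.16% of all genes. IFT25 differed most, by 2.22 (SE 0.21, limma adjusted p = 1.2e-09), followed by IFT52 at 1.92 and IFT80 at 1.54. In LL the fall was smaller for 4 members (IFT25, 1.58; IFT52, 1.25; IFT80, 1.10; IFT140, 1.01), against 4.1% of all genes. The LL count was 8 without ML replicate 1 at +2 and 9 without LL replicate 1 at +2, and the call on IFT140 was lost without ML replicate 1 at −2, ML replicate 2 at +2, LL replicate 2 at −2 or LL replicate 3 at +2. In HL, the call on BBS5 was lost without ML replicate 3 at +2 and that on IFT81 without ML replicate 2 at +2 (0.97). The HL count ranged from 13 to 21 when any replicate number was left out.

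From +2 to +6 the fall was larger in HL than in ML for 4 members, against 4.18% of all genes, namely IFT25 (−1.76), IFT52 (−1.41), IFT122 (−1.06) and IFT54 (−1.05). From +6 to +10 the rise was larger in HL for CEP83 alone (1.40, limma adjusted p = 0.0016), against 2.16% of all genes. From +10 to −10 the change was lower in HL for 18 members, against 4.86% of all genes. These were 16 IFT mRNAs, CEP83 and BBS4, led by CEP83 (−1.67), IFT57 (−1.57) and IFT38 (−1.5). The size of the CEP83 value rests in part on ML replicate 3. That replicate had 5.07 FPKM at +10, against 10.2 and 12.4 FPKM in the other ML libraries, and 26.9 FPKM at −10, against 10.6 and 9.12 FPKM. Without ML replicate 3 at +10, the count for this last step was 9, and the call on CEP83 from +6 to +10 was lost. The call on BBS4 from +10 to −10 was lost without ML replicate 3 at +10 or −10, HL replicate 3 at +10 or HL replicate 1 at −10.

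Over the same dusk interval in LL, MKS6 fell less than in ML (1.08, SE 0.30, limma adjusted p = 0.0030) and CEP83 had a lower change than in ML (−1.19, SE 0.31, limma adjusted p = 0.0021), where 8.66% and 5.9% of all genes were called higher and lower. At −10 MKS6 had 2.62, 3.71 and 4.05 FPKM in LL and 1.42, 1.55 and 4.85 FPKM in ML, so the groups overlapped. CEP83 had 9.10, 8.32 and 9.96 FPKM in LL and 10.6, 9.12 and 26.9 FPKM in ML, also overlapping. In both mRNAs ML replicate 3 stood above its group, as did its sum of division markers, at 265.8 FPKM against 96.34 and 85.05 FPKM in the other ML libraries at −10. The call on CEP83 was lost without ML replicate 3 at −10 (−0.74, limma adjusted p = 0.012), where CEP95 was called instead (1.09, higher in LL), and without ML replicate 3 at +10 (−0.86, limma adjusted p = 0.016). The call on MKS6 was lost without ML replicate 1 at +10, ML replicate 1 or 2 at −10, or LL replicate 3 at either timepoint, with values between 0.86 and 0.99.

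The members that were highest at +10 included the scarcest ones. CEP131 (Cre09.g394732), a centriolar satellite protein in human cells, lay between 8.35 and 13.5 FPKM in LL, 11.0 and 17.1 FPKM in ML, and 19.0 and 22.1 FPKM in HL at +10. At −2, +2 and +6 it was at or under 1.70 FPKM in every library, so no fold change is given. MKS6, CEP19, CEP95 and BBS1 were also highest at +10 in all populations, and CEP83 was so in LL and HL but highest at −10 in ML. That ML peak rests on replicate 3, since CEP83 had 10.6, 9.12 and 26.9 FPKM at −10 and 10.2, 12.4 and 5.07 FPKM at +10. BBS3, BBS5 and BBS9 were highest at +10 in ML and HL, and BBS7 in HL. In total 6 of 38 members peaked at +10 in LL, 8 in ML and 10 in HL, against 18.9%, 22.6% and 22.3% of all genes in LL, ML and HL, so a peak at +10 was about as common among the members as among all genes.

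CEP19 at +10 had 14.7, 15.6 and 13.2 FPKM in LL, 16.8, 16.0 and 14.1 FPKM in ML, and 19.6, 21.0 and 20.7 FPKM in HL. The HL libraries were above all others, and the LL and ML libraries overlapped. The division markers were highest at +10 in every population too. Over the 15 group means, the 6 members least like the median member profile were CEP131 (Pearson r = 0.42), CEP95 (0.435), MKS6 (0.496), CEP19 (0.563), BBS1 (0.637) and CEP83 (0.70). These correlations are descriptive, run over group means that share libraries, and include each member in the median it is compared with.

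By contrast, 28 of 38 members, among them all 22 IFT mRNAs, had r above 0.9, as did 4.86% of the other genes tested. The genes outside the set with a symbol and the profile most like the members' median were DHC2 (0.999), IC97 (0.998), DHC6 (0.998), FAP45, FAP172, DHC10 and RSP5 (0.995 each) and FAP221 (0.994). Their descriptions name axonemal dynein heavy chains, an inner arm dynein intermediate chain, flagellar associated proteins and a radial spoke protein.

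The rest of the pathway was represented by 10 genes outside the naming rule whose descriptions name dynein 1b, kinesin-II, the transition zone or an IFT adaptor. At +2, 3 of the 10 were higher in HL than in ML and none was lower, against 4.51% and 1.46% of all genes. The 3 were the dynein 1b intermediate chains DIC6 (1.42) and DIC5 (1.15) and the kinesin-II associated protein KAP1 (1.05). At +10, 1 of the 10, the dynein 1b heavy chain DHC16, was higher in HL (1.07), against 3.24% of all genes. At +6, 1 of the 10, the transition zone gene B9D2A, was higher in HL (1.68), against 1.37% of all genes. In LL at −2, 2 of the 10, B9D2A (−1.36) and B9D1 (−1.14), were lower than in ML, against 1.33% of all genes. The division markers moved with them, 9 of 11 being lower in LL (median −1.71), against the same 1.33% of all genes. These markers summed to 13.2, 13.9 and 13.2 FPKM in LL and 55.4, 142.1 and 41.9 FPKM in ML. Their part in the B9D2A and B9D1 values was not tested. B9D2A had 0, 0.302 and 1.58 FPKM in LL, against 3.65, 3.54 and 1.72 FPKM in ML, with the 0 in the shallow library, and without that library its call was lost (−1.07, limma adjusted p = 0.036) while that of B9D1 was kept (−1.18, limma adjusted p = 0.0092). B9D1 was also the one gene of this list called between HL and LL at +10 (1.07, higher in HL), against 2.23% of all genes. The transition zone genes B9D1, B9D2A and B9D2B all peaked at +10 in each population, at the same timepoint as MKS6.

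Radial spoke, tubulin and flagellar associated protein (FAP) genes, taken by symbol, were counted in the same comparisons. At +2, 13 of 16 radial spoke (RSP) genes tested were higher in HL than in ML and none was lower (median 1.24), as were all 4 tubulin genes tested, TUA1, TUA2, TUB1 and TUB2 (median 2.10). Of 333 FAP genes tested, 57 were higher and 4 lower (median 0.54), where 4.51% of all genes were higher and 1.46% lower. In LL at +2 no RSP gene, 1 tubulin gene and 5 FAP genes were higher than in ML and 10 FAP genes were lower, against 4.28% of all genes higher and 3.23% lower, so the FAP counts were no larger a share than those over all genes. Between HL and LL at +2, all 4 tubulin genes (median 1.22), 2 RSP genes and 11 FAP genes were higher in HL and 1 FAP gene was lower, against 2.75% and 2.4% of all genes. At +10, 9 RSP genes, 70 FAP genes and no tubulin gene were higher in HL than in ML and 1 FAP gene was lower, against 3.24% and 0.438% of all genes.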

How the data were processed

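RNA-seq was analysed in 45 libraries (15 groups of light level and timepoint, 3 replicates each), grouped by their GEO titles. The authors aligned 50 nt reads with STAR 2.4.0j to the CC-4532 v6.1 assembly and deposited FPKM computed with Cuffdiff 2.0.2 (stranded, first strand). The deposited table of group means was not used. FPKM is a share of each library, so a change in other abundant mRNAs moves it, and read totals are unknown.

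Low genes were dropped (kept: 3 or more libraries with FPKM of 1 or more) and the rest tested on log2(FPKM + 1) with limma 3.58.1 (R 4.3.3), fitting the 15 group means with a mean-variance trend. A call needed a log2 fold change beyond 1 in either direction, with a p adjusted by Benjamini-Hochberg within its contrast of less than 0.01. With 3 replicates per group, p-values measure the spread between these cultures. The procedure was tested on simulated data. Tables and plots used Python 3.11.15, pandas 2.3.3, numpy 2.4.6 and matplotlib 3.10.9.

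Libraries are described for the most abundant member of each role, and for up to 3 members called with the largest change in each direction per light comparison; BBS4, BBS5, CEP131, FLA10 and values quoted as means were added after values were seen. The 8 genes of like profile were ranked by Pearson r. Members, roles and gene lists were chosen with earlier results of these data known. Alternatives were a pseudocount of 0.1, no filter, median scaling, a replicate block, each timepoint modelled alone, omission of each replicate number, and omission of LL replicate 1 at −2; omission of each single library was chosen after seeing the data. A planned count of promoter motifs was not run.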

Additional observations from a re-analysis of the deposited data

Results flagged for a closer look

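The size of steps in the daily course of the members differed between populations by a direct test of the difference in a step, with the limma model and thresholds used throughout. These results share libraries with the comparisons at each timepoint and are not independent of them. From −2 to +2, 20 members fell less in HL than in ML and 4 fell less in LL than in ML. From +2 to +6, 4 members fell more in HL than in ML. From +6 to +10, 1 member, CEP83, rose more in HL than in ML. From +10 to −10, 18 members had a lower change in HL than in ML. Over that interval in LL, 1 member had a higher change than in ML (MKS6) and 1 a lower change (CEP83).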

How the results depend on the processing

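Counts of members called were recomputed for 40 comparisons, for 15 of them with each timepoint modelled alone and for 6 without LL replicate 1 at −2. Single libraries were left out only where omission of a replicate number moved the count. No count with more members in 1 direction reversed, but a count of 0 or an equal split could not be scored as reversed. From +10 to −10 the LL effect gave 2 members higher without ML replicate 3 at −10, and 1 lower without ML replicate 1 at +10. From −10 to −2 it gave 1 higher without ML replicate 2 at −10, and 3 lower without ML replicate 3 at −10. Per the study, each experiment followed a culture over the diurnal cycle. Same-numbered libraries of 1 population may therefore be repeated samples of 1 culture. The labels do not state this pairing, and the main model, with its tests of steps, treats all libraries as unpaired. Across populations at 1 timepoint, deviations of same-numbered libraries correlated between −0.0581 and 0.329. They were above 0.1 in 12 of 45 pairs, against 5 of 90 pairs with different numbers. Across timepoints within a population, 16 of 90 same-numbered pairs were above 0.1, against 13 of 180 pairs with different numbers. A replicate block was shared by all populations, so it did not model each culture over time. With it, all 40 counts stayed within 1.5 times (21 members in HL against ML at +2). No filter, each timepoint modelled alone and omission of LL replicate 1 at −2 likewise moved none by more.

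With a pseudocount of 0.1, LL against ML gave 1 member at −2, 6 at +2 and 7 at +6, HL against ML gave 4 at +6, and HL against LL gave 1 at +2 and 1 at +10. The step from +2 to +6 in LL gave 2, and LL effects on steps gave 11 (−2 to +2), 1 (+2 to +6), 1 (+6 to +10), 1 (+10 to −10) and 1 (−10 to −2). Median scaling gave 1 for the LL effect from +10 to −10 and shifted the median of all genes by up to 0.304 for steps, and the HL effect from −2 to +2 then held for 16 members.

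Leaving out replicates or single libraries gave ranges of 2 to 10 members for LL against ML at +2, 1 to 7 for LL and 1 to 2 for HL at +6, 1 to 16 for HL against ML at +10, and 0 to 1 at +2 and 0 to 2 at +10 for HL against LL. Steps ranged from 0 to 2 (+2 to +6 in LL) and 1 to 3 (−10 to −2 in ML). LL effects ranged from 1 to 10 (−2 to +2), 0 to 2 (+10 to −10) and 0 to 3 (−10 to −2), and HL effects from 13 to 22 (−2 to +2), 0 to 1 (+6 to +10) and 7 to 21 (+10 to −10). The cause was not tested. Of the alternatives tried for 54 single-member values, 392 kept their side of the threshold and 28 lost it.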
